A study of Rattus norvegicus with 21 samples.

Results

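Hippocampus was compared with cerebral cortex in rats killed 24 h after the last of repeated exposures to hypobaric hypoxia, the thin, oxygen-poor air of high altitude simulated in a pressure chamber. The comparison holds 6 of the 21 libraries of the series, 3 of hippocampus and 3 of cortex, each numbered 2, 3 and 4 in the sample titles. A further 24 h library, titled hippocampus and described elsewhere in its labels as cortex, was left out. Genes entered with a mean of at least 10 normalized reads over the 6 libraries, which left 14886 of 30560 gene IDs. A normalized read count is the number of reads in a gene divided by a scaling factor of its library.

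All rats were male SD animals of WT genotype, 4 weeks old at the start and given 2 weeks to settle in, with a mean weight near 200 g. Exposed rats were taken to a simulated 28000 ft and held there for 5 min, in 6 cycles at intervals of 3 days, and 1 of the 8 did not survive. Those of the 24 h groups were killed 24 h after the last cycle and those of the 48 h groups after 48 h, while control rats stayed in normal air. The other libraries with a group were 4 of each tissue from controls and 3 of each tissue at 48 h. RNA came from 50 mg pieces, and the labels name neither the cortical region nor the part of the hippocampus. They do not tie a replicate number to a rat across tissues, so the libraries of both tissues were treated as independent, although both come from the same set of animals.

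The hippocampus is a fold of the medial temporal lobe that serves memory and spatial navigation. It is built from the dentate gyrus, a sheet of granule cells, and the pyramidal cell fields of the cornu ammonis, and some of its neurons are known for their sensitivity to loss of oxygen. The neocortex is a layered sheet of projection neurons and interneurons. Both regions share their main cell types, neurons, astrocytes, oligodendrocytes, microglia and vascular cells, and differ in the kinds of excitatory neurons and in the mix of cells. In RNA from a whole piece, fewer cells of a type and less RNA per cell cannot be told apart.

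The deposited table lists Ensembl IDs without gene names, and 0 of the 30560 IDs could be paired with a name. Marker genes of hippocampus, cortex or any cell type were therefore not looked at, the labelled tissues were not checked against their defining genes, and results are given as numbers of genes and as 4 example IDs. The 6 libraries held 11792179 to 18005603 reads in genes, spread over 18588 to 19051 genes. The other libraries with a group held 11214566 to 19304803 reads, apart from hippocampus control 1 with 4654096. Within the 24 h groups the median SD per gene, on the log2 scale, was 0.299 in hippocampus (n = 3) and 0.289 in cortex (n = 3). In control hippocampus it was 0.635 (n = 4).

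The 6 libraries parted by tissue along their first principal component, which held 44% of the variance. Cortex replicates 2, 3 and 4 lay at -48.5, -42.6 and -53.3, and hippocampus replicates 2, 3 and 4 at 21.6, 52.9 and 69.9. The second component held 29.6% and cut across the tissues. Cortex replicate 3 lay at -68.2 and hippocampus replicate 4 at -45.9, and the other 4 libraries lay between 21.1 and 36.2. The same pair of libraries had the largest shares of reads in the single most abundant gene, 5.49% and 5.67%, against 3.29% to 3.96% in the other 4. Whether this composition had a part in the tissue differences was not tested.

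**Figure D1:**
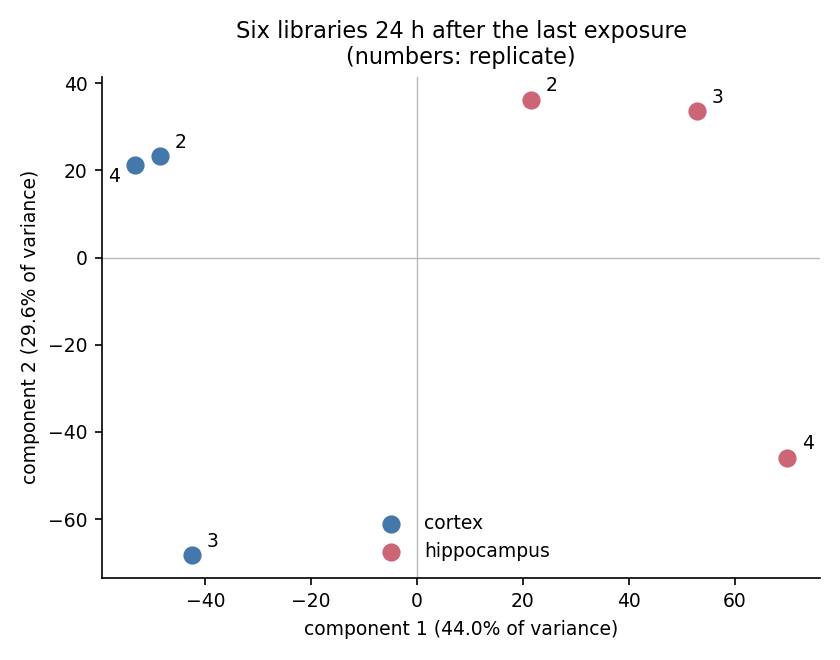
The plot places the 6 libraries at 24 h on the first principal component (x axis, 44.0% of variance) and the second (y axis, 29.6%). The axes are component scores, weighted sums of log2(normalized count + 1) over 14886 genes, each gene centred on its mean. Each point is a library and its number is the replicate. Cortex lies at negative and hippocampus at positive values of component 1, and cortex replicate 3 and hippocampus replicate 4 lie apart from the other 4 on component 2.

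Libraries of a tissue were not always closer to each other than to the other tissue. The median absolute log2 difference per gene was 0.175 between cortex replicates 2 and 4, the closest pair, with 2.47% of genes over 2-fold apart. It was 0.424 and 0.433 from cortex replicate 3 to cortex replicates 2 and 4. Hippocampus replicates 2 and 3 differed by 0.226, and replicate 4 differed from them by 0.406 and 0.414. Across the tissues the 9 pairs ran from 0.309 to 0.535. Hippocampus replicate 2 was closer to cortex replicates 2 and 4 (0.309 and 0.323) than to hippocampus replicate 4. The same held for hippocampus replicate 3 (0.38 and 0.395). Cortex replicates 2 and 4 were likewise closer to hippocampus replicates 2 and 3 than to cortex replicate 3.

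The place of each 24 h library between the tissues was read from genes chosen without any 24 h library. In the control and 48 h libraries, 130 genes were at least 4-fold higher in the hippocampus median and 252 at least 4-fold higher in the cortex median, and the higher of the 2 medians reached 100 normalized reads or more. Each gene was put on a scale with the cortex median at 0 and the hippocampus median at 1, and a library was placed at the median over genes. Cortex replicates 2, 3 and 4 at 24 h lay at 0.0721, 0.291 and 0.0179. Hippocampus replicates 2, 3 and 4 lay at 0.563, 0.906 and 1.06. Each hippocampus library thus lay above each cortex library, with hippocampus replicate 2 near the middle and cortex replicate 3 off the cortex end. The medians at the ends include hippocampus controls 1 and 2 and cortex control 3, which are doubted below. Positions of single control and 48 h libraries are not given, so how usual such places are within a tissue was not tested.

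The 2 sets of genes placed the libraries differently. By the 130 hippocampus-high genes, hippocampus replicates 2, 3 and 4 lay at 0.438, 0.631 and 1.51, and replicate 4 was the highest hippocampus library for 101 of the 130. By the 252 cortex-high genes they lay at 0.623, 0.971 and 1.03, so replicates 3 and 4 were both close to the hippocampus end. Replicate 2 was the hippocampus library with the highest level for 219 of these 252 genes. Cortex replicates 2, 3 and 4 lay at -0.0239, 0.136 and -0.0352 by the first set and at 0.191, 0.379 and 0.11 by the second. Cortex replicate 3 was the lowest cortex library for 152 of the 252 cortex-high genes.

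**Figure D2:**
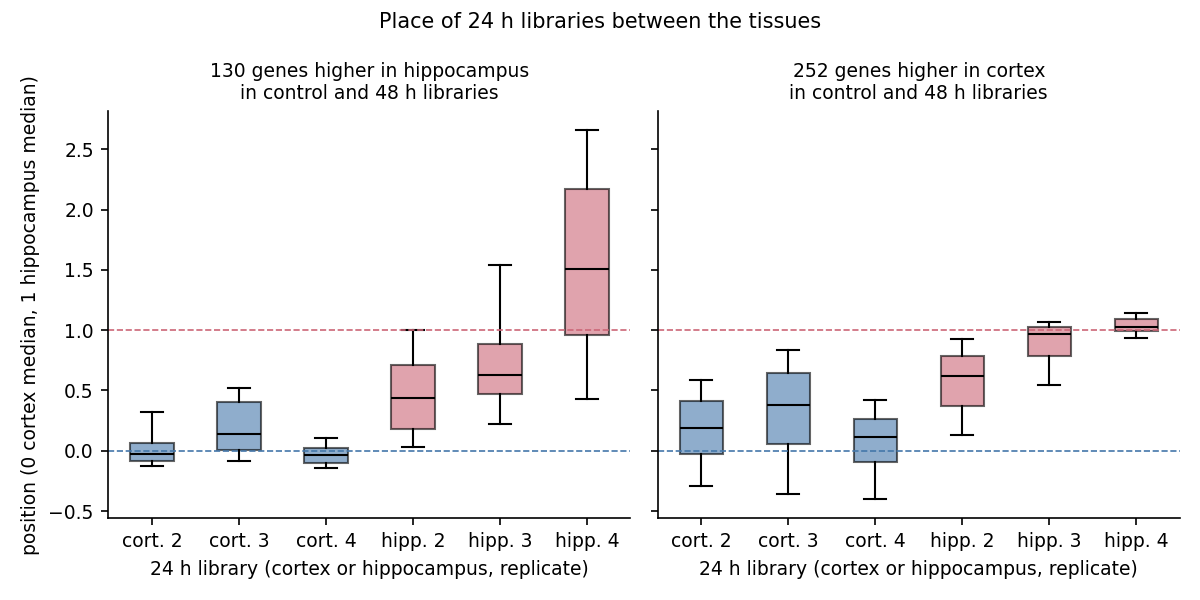
Boxes show, for each 24 h library (x axis), the position of single genes between the cortex median (0) and the hippocampus median (1) of the control and 48 h libraries (y axis, no unit), for 130 genes higher in hippocampus (left) and 252 higher in cortex (right). Lines are medians, boxes the quartiles and whiskers the 10th and 90th percentiles over genes; hippocampus replicate 2 lies at 0.438 and 0.623, and hippocampus replicate 4 reaches 1.51 on the left only.

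Of the 14886 genes, 230 (1.55%) had a higher level in hippocampus and 57 (0.383%) had a higher level in cortex 24 h after the last exposure, at a Benjamini-Hochberg adjusted p under 0.05 in limma with the spread taken from all 20 libraries with a group. These calls take the libraries as independent. With the replicate number as a block across tissues, 0 genes were called. The differences of the 287 genes called without a block (1.93%) were large. The median log2 difference, hippocampus minus cortex on the log2(normalized count + 1) scale, was 1.77 for the 230 and -1.75 for the 57, and the median absolute difference of all tested genes was 0.34. Among the 230, 87 differed more than 4-fold and 20 more than 8-fold. Among the 57, 26 and 8 did so. The smallest called differences were 0.68 and -0.8. In each direction more genes passed those sizes than were called: 295 tested genes were more than 4-fold higher in hippocampus and 225 more than 4-fold higher in cortex.

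The 3 hippocampus values lay wholly above or below the 3 cortex values for 4393 genes (29.5%), 2287 above (15.4%) and 2106 below (14.1%). This holds for 229 of the 230 and 56 of the 57 called genes. A further 4108 genes had no overlap and were not called. With 3 libraries per tissue some genes part in this way without any tissue difference, and their number was not estimated. At an unadjusted p under 0.05 there were 1358 genes higher in hippocampus and 963 higher in cortex, against 744 expected in all with no difference. The 80.1% of calls that were higher in hippocampus thus stand beside a smaller excess among genes without overlap. That share changed with the processing, as given in the closing section.

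Called genes were spread over the range of expression. When the genes were put into 4 bins of like size by their mean, 0.806% were called in the lowest bin, with means of 10 to 83.5 normalized reads, 23 higher in hippocampus and 7 in cortex. In the highest bin, with means from 704.3 reads up, 2.74% were called, 81 and 21. The median 95% interval reached 1.35 to either side in the lowest bin and 0.634 in the highest, so differences of low genes were measured less sharply. Over all tested genes it reached 0.791, and for 38.7% of genes the interval lay within a 2-fold difference in either direction. Few calls were close to presence against absence: the cortex mean was under 10 for 11 of the 230, and the hippocampus mean was under 10 for 4 of the 57.

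**Figure D3:**
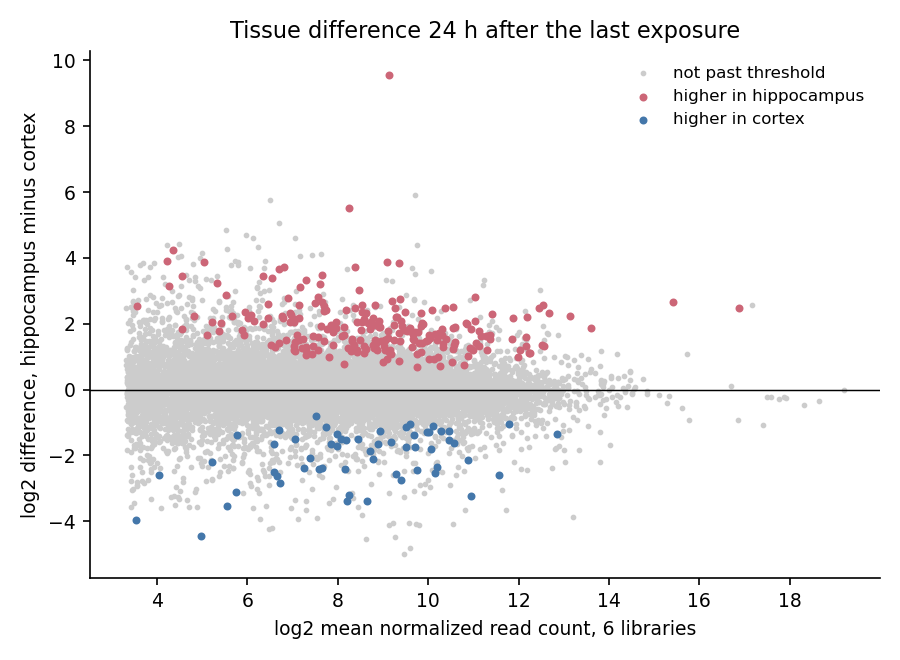
Each point is 1 of 14886 genes, with the log2 mean normalized read count over the 6 libraries on the x axis and the log2 difference, hippocampus minus cortex at 24 h, on the y axis. The 230 genes called higher in hippocampus (red) and the 57 called higher in cortex (blue) lie at all levels of expression, and grey genes of like size did not pass the threshold.

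The individual libraries did not contribute evenly to the calls. Hippocampus replicate 4 had the highest hippocampus value for 167 of the 230 genes higher in hippocampus, replicate 3 for 58 and replicate 2 for 5. Replicate 2 had the lowest hippocampus value for 136 of them. Cortex replicate 3 had the highest cortex value for 153 of the 230. For the 57 genes higher in cortex, the hippocampus library with the highest value was replicate 2 for 46. These orders describe genes chosen on the same libraries. Among the 130 hippocampus-high genes chosen without them, replicate 2 had the lowest hippocampus value for 91.

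The number of calls depended on which libraries gave the means and the spread. The 6 libraries alone gave 62 genes higher in hippocampus and 25 in cortex, 57 of these 87 shared with the 287. The 12 libraries of exposed rats gave 672 and 483. Without hippocampus replicate 2 and cortex replicate 3, which lay off their tissue's end, the numbers were 254 and 110, with 189 of the 287 among them. Without cortex replicate 3 and hippocampus replicate 4, the pair set apart by the second component, they were 132 and 12. At 24 h, 3 genes were called without cortex replicate 2, 2 without cortex replicate 4, 35 without hippocampus replicate 3 and 19 without hippocampus replicate 4. Without hippocampus replicate 2, 201 and 124 were called. Without cortex replicate 3 the numbers were 265 and 55, with 194 of the 287 among them. Controls and 48 h libraries enter through the spread only. Without hippocampus controls 1 and 2 the numbers were 606 and 301, and 324 and 152. Without cortex controls 1, 2, 3 and 4 they were 136 and 24, 158 and 26, 316 and 120, and 136 and 25. Without cortex 48 h replicates 2 and 3 they were 121 and 18, and 183 and 32. With the replicate number as a block across tissues, 0 genes were called in limma (smallest adjusted p 0.0805, 2001 genes at an unadjusted p under 0.05), which ends all 287 calls, those of the 4 genes described next included. Whether a number stands for the same rat in both tissues is not known from the labels.

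The gene with the largest tissue difference was ENSRNOG00000012478, which was called higher in hippocampus. Its normalized read counts were 1353, 1828 and 174.7 in hippocampus replicates 2, 3 and 4, and 0 in all 3 cortex libraries. All hippocampus libraries were high, and replicate 4 was the lowest of them, unlike most genes higher in hippocampus. The hippocampus mean was 1119 ± 851 (SD, n = 3). The count of 0 allows up to 3 reads over the 3 cortex libraries, or 0.889 normalized reads. The hippocampus mean was at least 1258-fold above that level. This bound covers the counting error in cortex alone and takes the hippocampus mean as exact, and replicate 4 lay far below that mean. The limma test gave an adjusted p of 0.013, with a log2 difference of 9.57 (SE 1.64) that depends on the added count of 1. The call was lost without cortex replicate 2 (limma adjusted p = 0.08), cortex replicate 4 (0.0918) or hippocampus replicate 3 (0.0615).

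The same gene was nearly silent in cortex at the other times too, with 0 to 4.16 normalized reads in controls and 0 to 1.67 at 48 h. In hippocampus at 48 h it ranged from 230.5 to 2260. In control hippocampus it was 0 in replicate 2 and 144.4, 271.9 and 510.9 in the others. One control hippocampus library thus overlapped with cortex, and no other hippocampus library with a group did.

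ENSRNOG00000059793 was the other example higher in hippocampus, with normalized read counts of 500.1, 841.2 and 434.3 in hippocampus replicates 2, 3 and 4. In cortex replicates 2, 3 and 4 it had 6.45, 28.3 and 7.97. The tissues did not overlap, and cortex replicate 3 was the highest cortex library. The means were 592 ± 218 (SD, n = 3) and 14.2 ± 12.2 (SD, n = 3), a log2 difference of 5.51 (SE 1.25, limma adjusted p = 0.0362). edgeR gave an adjusted p of 0.0666. The limma call was lost without any 1 of the 24 h libraries other than cortex replicate 3 (adjusted p 0.0545 to 0.141) and without cortex 48 h replicate 2 (0.0516).

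In the other direction, ENSRNOG00000046276 had 40.3, 45.1 and 98.7 normalized reads in cortex replicates 2, 3 and 4. It had 1.08, 1.93 and 2 in hippocampus replicates 2, 3 and 4, from 1, 2 and 2 reads. All cortex libraries were far above all hippocampus libraries. The ratio of the summed counts was 35.1 (exact 95% interval 14.8 to 109, counting error only). The log2 difference was -4.45 (SE 1.02, limma adjusted p = 0.0367). The call was lost without any 1 of the 6 libraries at 24 h (adjusted p 0.0531 to 0.158), and without cortex control 1 (0.0502), cortex control 4 (0.0523) or cortex 48 h replicate 2 (0.053).

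ENSRNOG00000019472 had 66.1, 138.7 and 49.8 normalized reads in cortex replicates 2, 3 and 4, and 20.5, 3.86 and 2 in hippocampus replicates 2, 3 and 4. The groups did not overlap, and hippocampus replicate 2 was the highest of its tissue. The means were 84.9 ± 47.3 (SD, n = 3) in cortex and 8.78 ± 10.2 (SD, n = 3) in hippocampus, a log2 difference of -3.52 (SE 0.815, limma adjusted p = 0.0371). edgeR gave an adjusted p of 0.0598, and the 6 libraries alone gave 0.0827 in limma. The call was lost without any 1 of the 24 h libraries other than hippocampus replicate 2 (adjusted p 0.0973 to 0.168), and without cortex control 2 (0.0513), cortex control 4 (0.0527) or cortex 48 h replicate 2 (0.0535). These 4 IDs were chosen as the largest called differences without overlap and a mean of at least 50 in the higher tissue, so their separation is a description.

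**Figure D4:**
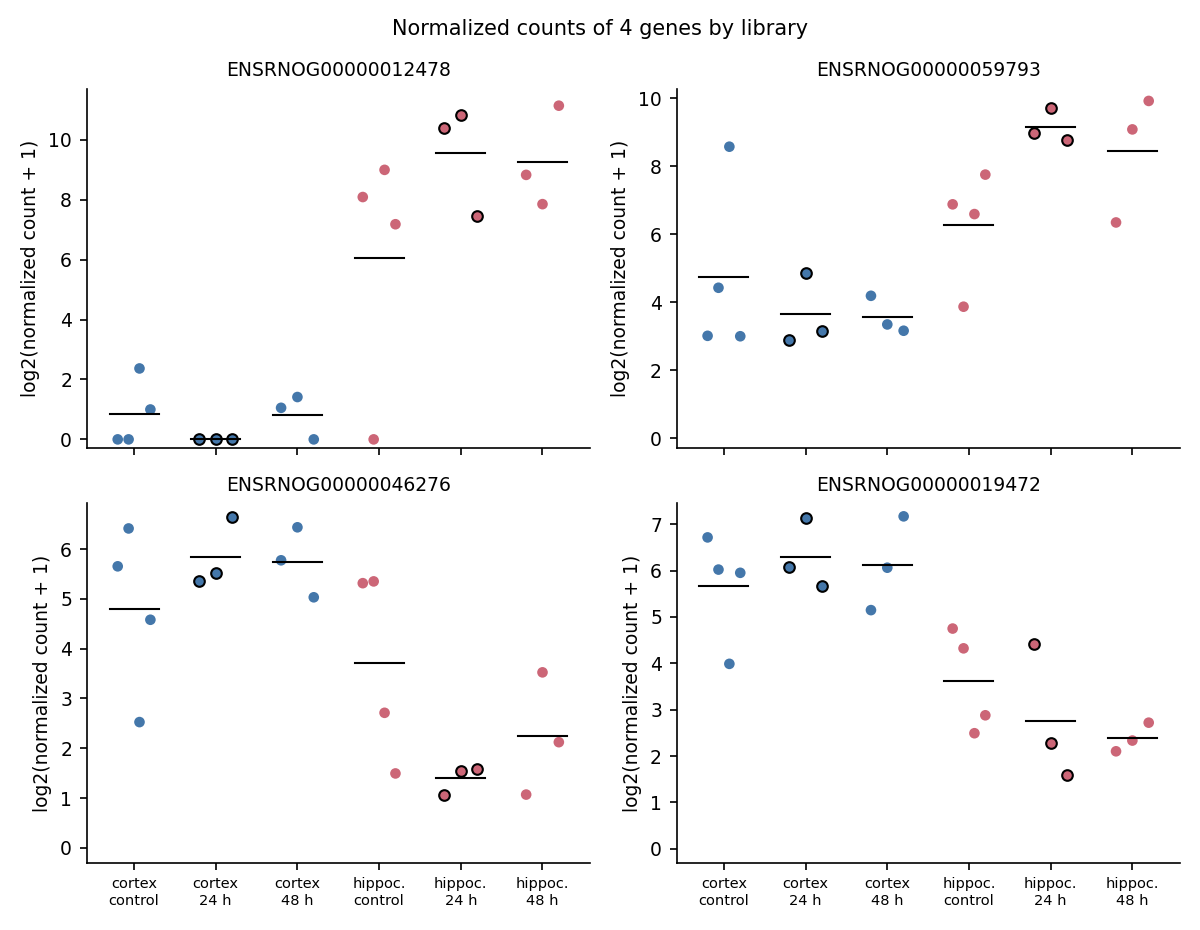
The plots show log2(normalized count + 1) on the y axis for 4 genes in the 20 libraries with a group (points, with 24 h libraries outlined; bars are group means), by tissue and time on the x axis. The 24 h hippocampus and cortex points do not overlap for any of the 4, and in controls the tissues overlap for all 4.

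Genes chosen in the control and 48 h libraries gave a measure of the tissue difference that does not rest on picking genes at 24 h. All genes of both sets were among the tested genes. Of the 130 hippocampus-high genes, 124 were higher in hippocampus at 24 h. The libraries did not overlap for 83 of them, against 15.4% of all tested genes in this direction. Of the 130, 42 were called (32.3%, against 1.55% of all tested genes called in this direction). Of the 252 cortex-high genes, 249 were higher in cortex at 24 h, 158 without overlap, and 21 were called (8.33%, against 0.383%). In either set 0 genes were called in the opposite direction.

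The size of the difference in these genes varied with the library. For the hippocampus-high set the median log2 difference from the cortex 24 h mean was 1.67, 1.99 and 3.0 in hippocampus replicates 2, 3 and 4. For the cortex-high set it was -0.76, -2.05 and -2.79, so replicate 2 stood out by its high level of cortex genes. The median over the set was 2.21 at 24 h for the hippocampus-high genes and -1.87 for the cortex-high genes. Without hippocampus replicate 2 and cortex replicate 3 these medians were 2.82 and -2.61. At 48 h they were 2.67 and -2.83 and in controls 2.22 and -1.86, from the libraries on which the genes were chosen.

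The genes called at 24 h were nearly all different in the same direction in the libraries of other rats. All 230 genes higher in hippocampus at 24 h were also higher there in controls, and 228 at 48 h. Of the 57 genes higher in cortex, 56 had the same sign in controls and 57 at 48 h. Among all tested genes 62.2% had the same sign in controls and 67.8% at 48 h. The median log2 difference of the 230 was 1.21 in controls and 1.63 at 48 h, and that of the 57 was -1.26 and -2.0. The genes were chosen on their 24 h values, so these medians were not compared in size with those at 24 h.

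Fewer were called again. In the same fit, 127 of the 230 were called in controls (1.65% of all tested genes were called in that direction there) and 156 at 48 h (2.49%). Of the 57, 22 were called in controls (1.26%) and 44 at 48 h (2.96%). 65 of the 230 and 13 of the 57 were called at neither. The 3 contrasts take the spread of a gene from the same fit, which ties their calls to each other. Across the 14886 genes, which do not stand for independent replicates, the log2 difference at 24 h correlated with that at 48 h (Pearson r = 0.738) and with that in controls (r = 0.573). These libraries share no sample, but share the tissues and the sequencing of the series.

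**Figure D5:**
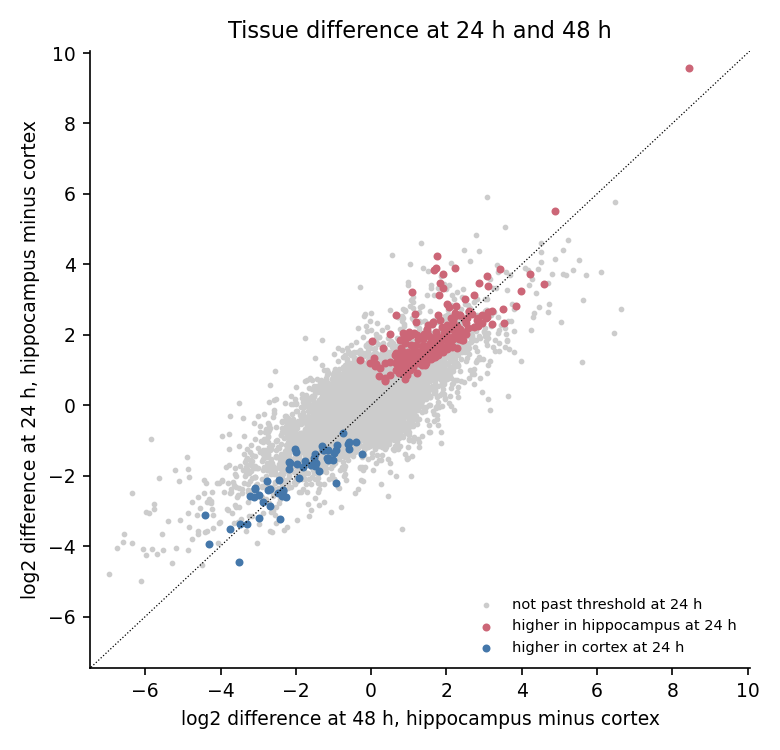
Each point is 1 of 14886 genes, with the log2 difference, hippocampus minus cortex, at 48 h on the x axis and at 24 h on the y axis; the dotted line marks equal differences. Genes called at 24 h are red (230 higher in hippocampus) and blue (57 higher in cortex), and 228 of the 230 and all 57 fall on the same side of 0 at 48 h.

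Whether the tissue difference itself changed after exposure was tested as an interaction term. Against controls, 0 of 14886 genes passed in limma (0%), where the smallest adjusted p was 0.855. An unadjusted p under 0.05 was reached by 523 genes, against 744 expected. edgeR and DESeq2 called 0 as well, with 949 and 1022 at an unadjusted p under 0.05. Between 24 h and 48 h, 0 passed in limma (0%), with 515 at an unadjusted p under 0.05, edgeR called 0 with 552, and DESeq2 called 2 with 764. In limma this number depended on the libraries in the fit. The 12 libraries of exposed rats gave 1242 and 0 calls (smallest adjusted p 0.577). Leaving out 1 library gave from 172 (cortex 24 h replicate 3) to 1343 (hippocampus control 1), with 0 calls. With library weights limma called 858 genes for this contrast, 447 with a difference more toward hippocampus at 24 h and 411 more toward cortex (smallest adjusted p 0.00952), and 0 against controls (0.125, 2357 at an unadjusted p under 0.05). The median 95% interval of this difference between differences reached 1.05 to either side against controls and 1.12 against 48 h, on the log2 scale. These intervals hold for 1 gene taken alone, and a change had to be larger than that to pass after adjustment over 14886 genes.

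The 4 example genes show how wide this was. For ENSRNOG00000012478 the tissue difference was 9.57 at 24 h, 8.45 (SE 1.64) at 48 h and 5.23 (SE 1.42) in controls. The 24 h value was 4.34 (SE 2.17) above that in controls, which did not pass (limma adjusted p = 0.855). For ENSRNOG00000059793 the difference was 4.88 (SE 1.25) at 48 h and 1.52 (SE 1.08) in controls, 3.99 (SE 1.65) below the 24 h value in the latter case (limma adjusted p = 0.855). In controls the tissues overlapped for this gene, with 13.6 to 214.4 normalized reads in hippocampus and 6.98 to 379.5 in cortex, and the highest value came from cortex control 3. ENSRNOG00000046276 had -3.51 (SE 1.02) at 48 h and -1.08 (SE 0.886) in controls, and ENSRNOG00000019472 had -3.74 (SE 0.815) and -2.06 (SE 0.706). All 4 differences were further from 0 at 24 h than in controls, as their choice at 24 h favours, and none of the 4 differed from controls or from 48 h at an adjusted p under 0.05 in limma.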

How the data were processed

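Libraries were made with a stranded mRNA kit from TRIzol RNA, per the labels' protocols. The submitters' processing notes name fastp 0.20.0, HISAT2 2.1.0 and featureCounts 2.0.1 of Subread. For the build, annotation, strand setting and count filter, nothing is given in the sources used here. The signal deposited by the authors is, from its values, a read count divided by 1 size factor per library. All 21 columns gave whole reads (100% of values within 0.001 of a whole number), and 0 columns were left over. Such scaling removes a shift shared by most genes. The labels count separate rats in each group but do not tie each library to a rat, so p-values measure the spread between these libraries, which may be technical. Chi-square per degree of freedom between replicates of a 24 h group was 15.6 to 137.9, so none was counted as a repeat.

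The test was limma 3.58.1, run in R 4.3.3 on log2(value + 1) (eBayes with trend, two-sided, Benjamini-Hochberg over 14886 genes, threshold 0.05), with 1 mean per group over 20 libraries and no replicate block. This scale understates differences of low genes. edgeR 4.0.16 (quasi-likelihood) and DESeq2 1.42.0 (Wald) on the recovered reads, other filters, scalings, pseudocounts, libraries in the fit, a block and library weights were alternatives. The tests were tested on simulated data. The members, 29 gene lists and the alternatives were chosen with earlier results of these data known. Leaving out the pair set apart by the second component, and all 5 doubted libraries, was added after seeing the data. The reference table of 47357 rat genes held 0 Ensembl IDs, so the lists could not be applied. The named-gene rule then took the 2 IDs in each direction with the largest called, non-overlapping difference and a mean of at least 50 in the higher tissue. Promoter sequences, gene positions, GC content and gene length were not used here.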

Additional observations from a re-analysis of the deposited data

Results flagged for a closer look

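ENSRNOG00000059793, one of the examples higher in hippocampus at 24 h, had a normalized read count of 379.5 in cortex control 3, far above 7.05, 20.4 and 6.98 in the other 3 cortex controls. Its distance from them, as a share of the range of the group, passed the critical value of Dixon's test. The 4 example genes were each tested in both control groups, 8 tests in all with 1 such library. For normally distributed values chance picks about 1 in 20 groups, and whether that rate holds for these counts was not tested. Cortex control 3 was also the highest cortex control for ENSRNOG00000012478 (4.16) and the lowest for ENSRNOG00000046276 (4.76) and ENSRNOG00000019472 (14.9), so in all 4 genes it lay toward the hippocampus side of its group, and its library weight was 0.26. Hippocampus control 2 leaned the other way, with a library weight of 0.356. It was the lowest hippocampus control for ENSRNOG00000012478 (0) and ENSRNOG00000059793 (13.6) and the highest for ENSRNOG00000046276 (39.8). For ENSRNOG00000019472 it had 19, below hippocampus control 1 (25.9). Both libraries enter the 24 h comparison only through the spread, but enter the comparison with controls through the means as well.

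The 24 h library with conflicting tissue labels was used in no comparison. It had 1048 normalized reads of ENSRNOG00000012478 and 715.1 of ENSRNOG00000059793. Both values were above all 8 control libraries, where the highest were 510.9 and 379.5. They lay within the ranges of the 24 h hippocampus libraries, 174.7 to 1828 and 434.3 to 841.2. In 24 h cortex the highest values were 0 and 28.3. On the position scale between the tissues, this library lay at 0.865, toward the hippocampus end. By the hippocampus-high genes it lay at 0.876, and by the cortex-high genes at 0.863. Which tissue it came from was not tested.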

How the results depend on the processing

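The 230 genes higher in hippocampus and 57 higher in cortex became 711 and 337 with DESeq2, 62 and 25 with the 6 libraries alone, 672 and 483 with the 12 libraries of exposed rats, and 1883 and 1634 with library weights. They became 132 and 12 without the pair set apart by the second component, and 1171 and 1157 without all 5 doubted libraries (hippocampus controls 1 and 2, cortex control 3, hippocampus 24 h replicate 2 and cortex 24 h replicate 3). The share of calls higher in hippocampus was 50.3% without the 5 doubted libraries, 53.5% with library weights and 58.2% with the 12 libraries of exposed rats. It was 67.8% with DESeq2, 85.9% with edgeR and 91.7% without the pair set apart by the second component. The number higher in cortex was 30 with edgeR, 103 with quantile normalization and 110 without both libraries off their tissue's end. Leaving out each library in turn gave 2 to 606 higher in hippocampus and 0 to 301 higher in cortex, and 0 to 0 genes in both comparisons of tissue differences. Between 24 h and 48 h, 2 genes were called with DESeq2 and 858 with library weights. The weights ran from 0.0393 to 7.33. The cause was not tested in any of these cases.

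With the replicate number as a block across tissues, 0 and 0 genes were called in limma over all 20 libraries (smallest adjusted p 0.0805, 2001 genes at an unadjusted p under 0.05). The block with the 6 libraries alone also gave 0 and 0 (0.179, 2352). The deviations of same-numbered libraries at 24 h correlated at 0.116, -0.207 and -0.292 for numbers 2, 3 and 4, and the highest, 0.333, was between hippocampus replicate 4 and cortex replicate 3. In controls they correlated at -0.0592, 0.124, 0.0416 and 0.146 for numbers 1 to 4, and at 48 h at 0.0329, -0.0109 and -0.00119 for numbers 1 to 3. The numbers were not taken as pairs because the labels do not tie them to rats. With 3 or 4 libraries per group, these correlations do not settle whether the numbers name the same rats.

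The calls of the 4 example genes were lost under 5, 11, 13 and 13 alternatives for ENSRNOG00000012478, ENSRNOG00000059793, ENSRNOG00000046276 and ENSRNOG00000019472, and 0 reversed. With both libraries off their tissue's end left out, ENSRNOG00000059793 had an adjusted p of 0.0511 and ENSRNOG00000046276 0.0976 in limma, and without the pair set apart by the second component ENSRNOG00000019472 had 0.341. On the log2 scale and with genes at least 8-fold apart, the position of hippocampus replicate 2 ranged from 0.446 to 0.603, that of cortex replicate 3 from 0.204 to 0.275 and that of cortex replicate 4 from 0.014 to 0.0358. The counts of list members were not run for want of gene names.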
